A study of Mus musculus with 10 samples.

Results

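Deletion of Tgfbr2, a receptor gene for TGF-beta, was examined in CD4+CD25- T cells that also lacked Il4. The libraries labelled IL4-/-KO were compared with those labelled IL4-/-, across all genes with a name in the deposited table. These groups were taken by their labels and made up 4 of the 10 libraries of the series, with 2 replicates in each. T cells that had infiltrated PyMT breast tumours, which arise from the polyoma middle T oncogene, were sorted from C57BL/6 mice at 23 weeks of age, and their RNA was sequenced. Every group of the series carried the PyMT transgene and floxed Tgfbr2 alleles (Tgfbr2 fl/fl). The IL4-/- group was Il4-/- with Tgfbr2 fl/fl and no Cre, and the IL4-/-KO group added ThPOKCre, a Cre driven from the gene of ThPOK, a transcription factor of the CD4 T cell lineage. The other groups, WT and KO, had the same floxed alleles without and with ThPOKCre and an intact Il4 gene. Whether the 2 replicates of a group are separate mice is not stated in the labels. The p-values therefore reflect only how far these particular samples vary, and some of that variation may be technical.

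TGF-beta is a cytokine that restrains T cell activation and shapes T cell fate. It binds a receptor of type 1 and type 2 chains, of which Tgfbr2 encodes the second, and SMAD proteins then carry the signal to the nucleus and switch on, among others, genes that damp the pathway itself. IL-4, encoded by Il4, is the main cytokine of type 2 helper T cells. Sorting CD25- cells removes many regulatory T cells, which carry CD25, the product of Il2ra.

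The 2 IL4-/- libraries held 28552482 and 33802781 reads in named genes, and the 2 IL4-/-KO libraries held 31996804 and 31285329. Values are given as deposited, in normalized counts (reads divided by a size factor of the library), with replicate 1 before replicate 2. At this depth a value of 0 is compatible with as many as 3 reads (1.93 to 2.43 normalized counts), a limit that covers counting error only. Of 17363 named genes, 14473 passed a minimum of 10 normalized counts, set for any 2 of the 8 replicates of the series, and were tested with limma on log2(normalized count + 1), a scale that understates the change of low genes. Log2 fold changes are IL4-/-KO minus IL4-/-, with their standard error (SE).

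IL4-/- replicate 2 stood apart in the RNA of other cell types. The summed macrophage and monocyte markers came to 28495 and 146071 normalized counts in IL4-/- against 35827 and 28409 in IL4-/-KO, and Lyz2, a lysozyme of those cells, to 2867 and 28932 against 4934 and 1267. The 22 mammary and tumour epithelium markers, such as the keratin gene Krt8, had sums of 58636 and 275089 in IL4-/- and 20356 and 114299 in IL4-/-KO. Core T cell genes, such as those of the T cell receptor complex, summed to 275511 and 175104 in IL4-/- and 284218 and 269396 in IL4-/-KO. The core T cell sum was lowest in IL4-/- replicate 2, while macrophage, dendritic, neutrophil and epithelial markers were highest in it. Pearson correlations of log2 values over the tested genes were 0.855 within IL4-/- and 0.865 within IL4-/-KO, against 0.838 to 0.893 between the groups, so replicates resembled each other no more than they resembled the other genotype. Values without this library are therefore given beside the results it touches, and its part in them was otherwise not tested. In bulk RNA such as this, fewer cells of a type and less RNA per cell cannot be told apart.

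**Figure D1:**
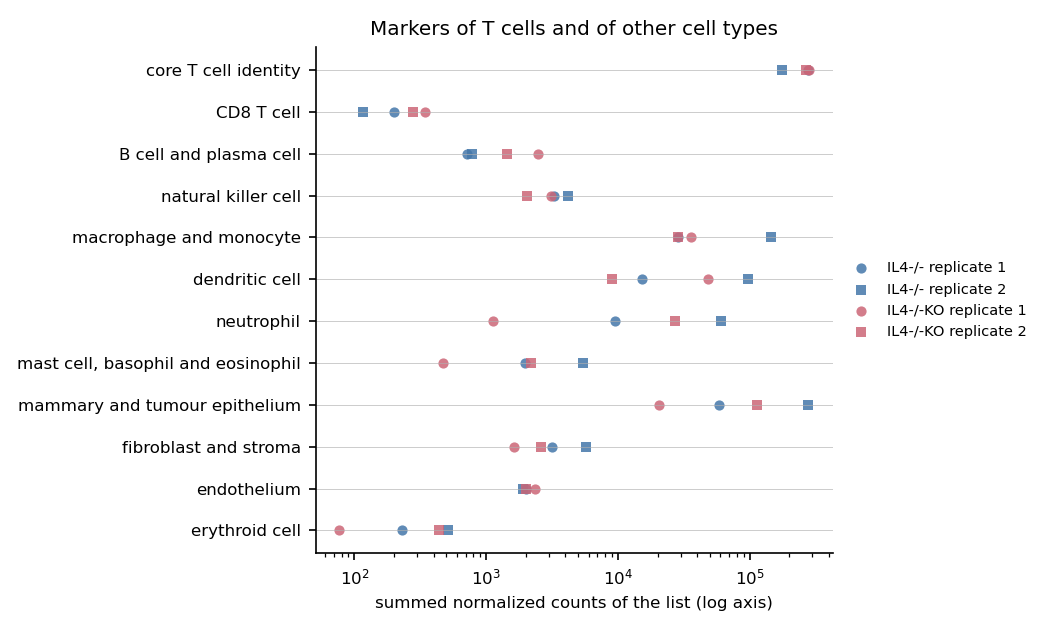
Summed normalized counts (log axis) of the marker genes of T cells and of 11 other cell types in the 4 libraries, circles for replicate 1 and squares for replicate 2. IL4-/- replicate 2 is lowest for core T cell genes (175104) and highest for macrophage (146071), dendritic cell (98071), neutrophil (60431) and epithelium (275089) markers.

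The targeted genes were read first. Tgfbr2 (chr9:116084293-116175360 in mm10, minus strand) stood at 13816 and 12544 normalized counts in IL4-/- and at 7762 and 8205 in IL4-/-KO. Both IL4-/-KO libraries lay below both IL4-/- libraries, with a log2 fold change of -0.72 ± 0.26 and a limma adjusted p of 1. WT was at 7876 and 7894 and KO at 6730 and 7623, so that IL4-/-KO was near the level of WT and KO and IL4-/- was above all other groups. A floxed deletion removes a stretch of a gene, and exons outside it may still be transcribed, so a sum over the whole gene checks the genotype only in part. Il4 was at 97.2 and 75.4 in IL4-/- and at 98.7 and 39.7 in IL4-/-KO, so reads assigned to it remained in all 4 libraries and the groups overlapped. With an intact gene, WT had 107 and 276 and KO had 389 and 380 (means of its library pairs).

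Across all genes, limma called none at an adjusted p under 0.05 (0%), and edgeR's quasi-likelihood test on the recovered reads called none either (0%). At an unadjusted p under 0.05, limma had 462 genes (3.19% of those tested, against 5% or 724 that chance gives), of which 177 were higher (1.22%) and 285 lower (1.97%) in IL4-/-KO. That split depended on the scaling, with 247 higher and 229 lower after quantile normalization and 57 higher and 371 lower when libraries were scaled on core T cell genes. It also depended on single libraries, with 270 higher and 160 lower without IL4-/- replicate 2, 73 and 330 without IL4-/-KO replicate 1, and 68 and 306 without IL4-/-KO replicate 2. The edgeR test had 378 such genes (2.61%). The Wald test of DESeq2 on the recovered reads called 51 genes (0.352%), 13 higher (0.0898%) and 38 lower (0.263%). Of these 51, 39 also had an unadjusted limma p under 0.05 (3.19% of all genes tested). No overlap between the groups was seen for 40, 12 higher and 28 lower (16.8% and 16.2% of all genes tested). Another 11 were above 0 in only 1 of the 4 libraries, and 10 of the 11 in IL4-/- replicate 2. Among these 10 were Trem1, a receptor of myeloid cells, at 0 and 723 in IL4-/- and 0 in both IL4-/-KO libraries, and Thbd, at 0 and 405 against 0 and 0. With IL4-/- replicate 2 left out, DESeq2 called 87 genes (0.601%), 76 higher (0.525%) and 11 lower (0.076%), 16 of them among the 51. That fit assumes that the lone IL4-/- library varies like the libraries of the other groups. The differences below are therefore described by their values, and none of them passed the adjusted limma test.

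**Figure D2:**
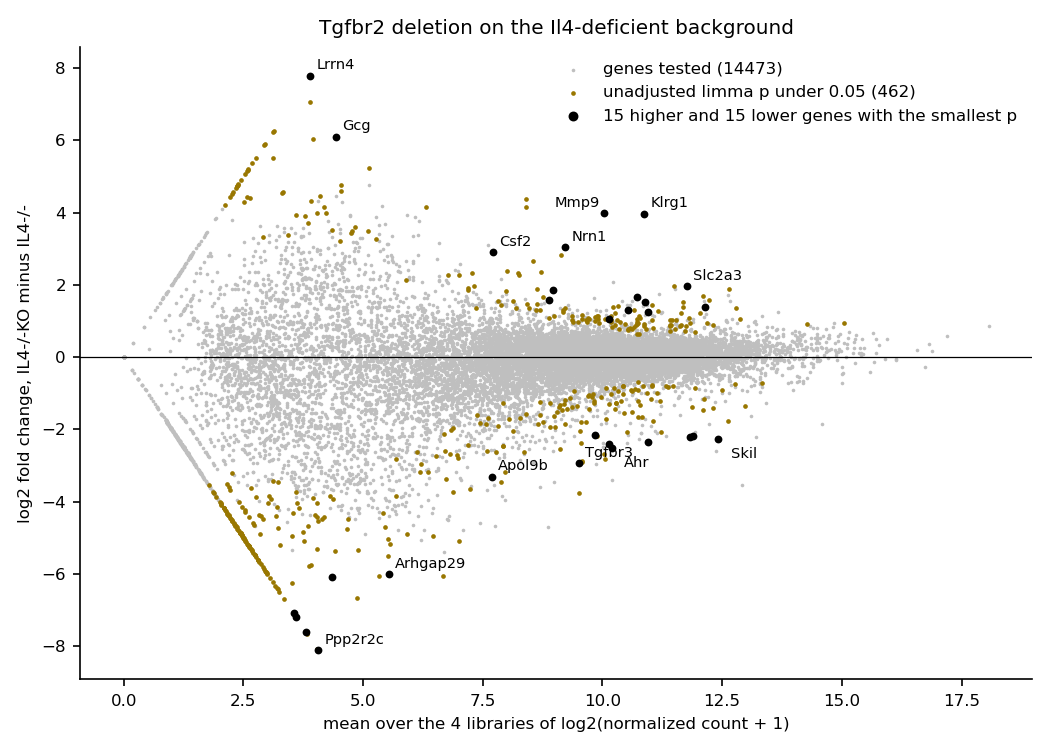
Each point is 1 of the 14473 genes tested, with its mean log2(normalized count + 1) over the 4 libraries against its log2 fold change, IL4-/-KO minus IL4-/-. Ochre points are the 462 genes with an unadjusted limma p under 0.05, and black points the 15 higher and 15 lower genes of smallest p, led by Klrg1 and Mmp9 above 0 and by Ahr below.

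The genes with the smallest p were Klrg1 and Mmp9, both higher in IL4-/-KO by similar folds. Klrg1 (chr6:122270596-122282882), a lectin-like receptor of terminally differentiated effector T cells and natural killer (NK) cells, was at 428 and 515 in IL4-/- and at 7198 and 7600 in IL4-/-KO. Replicates were close in each group and the means differed 15.7-fold (log2 fold change 3.97 ± 0.40, limma adjusted p = 0.159, DESeq2 adjusted p = 2e-15). The limma adjusted p for Klrg1 passed the threshold with quantile normalization, at 0.0221. Mmp9 (chr2:164940780-164955850), a secreted gelatinase that cuts collagen and activates latent TGF-beta, was at 276 and 249 against 4714 and 3726, a 16.1-fold difference of the means (3.99 ± 0.44, adjusted p = 0.159 by limma and 8.1e-12 by DESeq2). Myeloid cells also make Mmp9 and NK cells also carry Klrg1. The neutrophil markers summed to 9433 and 60431 in IL4-/- and 1119 and 27146 in IL4-/-KO, and the NK markers to 3289 and 4209 against 3106 and 2044. Of the 6 NK markers tested, Klrb1c, the receptor NK1.1, was higher without overlap (377 and 57.3 in IL4-/- against 904 and 989 in IL4-/-KO), and the other 5 overlapped. Ncr1, an activating receptor that defines NK cells, was at 23.5 and 10.3 in IL4-/- and at 58.7 and 0 in IL4-/-KO. The part of NK and myeloid cells in the Klrg1 and Mmp9 differences was not tested.

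The other higher genes of smallest p covered nutrient uptake, cytokines and surface proteins. Slc2a3, the glucose transporter GLUT3, was at 1614 and 1911 in IL4-/- and at 6945 and 6752 in IL4-/-KO (log2 fold change 1.96 ± 0.35). Izumo1r, which encodes folate receptor 4 of regulatory and anergic T cells, was at 1107 and 821 against 3172 and 2844. Nrn1, a small membrane-anchored protein known from neurons, was at 238 and 179 against 2174 and 1334 (3.04 ± 0.60). In these 3 genes the IL4-/-KO libraries lay above both IL4-/- libraries by more than the spread of either group. Csf2, the cytokine GM-CSF, was at 42.1 and 137 in IL4-/- and at 1131 and 291 in IL4-/-KO, with a wide spread in both groups, so that its log2 fold change of 2.90 ± 0.80 ran from 1.92 to 3.88 when 1 of the 4 replicates was left out. Tnfsf14, the cytokine LIGHT, was at 224 and 327 against 819 and 812. Psat1, an enzyme of serine synthesis, was at 689 and 872 against 1595 and 1626, and Spc24, a kinetochore protein, at 281 and 242 against 835 and 1087. The group was completed by Pglyrp1, Tspan32, Podnl1 and Dtx1, a regulator of Notch signalling, at log2 fold changes of 1.30, 1.24, 1.53 and 1.38, and by the sparsely detected Gcg and Lrrn4.

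Among the lower genes of smallest p, Ahr came first. It encodes the aryl hydrocarbon receptor, a ligand-activated transcription factor that helps type 17 and tissue-resident T cells. Ahr (chr12:35497974-35535038) was at 2437 and 3200 in IL4-/- and at 595 and 402 in IL4-/-KO, and the groups were far apart beside the spread within either. Its log2 fold change was -2.51 ± 0.35, with an adjusted p of 0.518 by limma and 9.1e-07 by DESeq2. Nt5e (chr9:88327197-88372092), the ecto-enzyme CD73 that makes adenosine outside the cell, was at 8520 and 7292 against 2556 and 1113 (-2.22 ± 0.52). Cdh1, which encodes E-cadherin, was at 7450 and 8747 against 1110 and 2853, and Osgin1, an oxidative stress response gene, at 2968 and 2249 against 629 and 372. Apol9b, an apolipoprotein L family gene, was at 689 and 607 against 54.9 and 75.1. All 5 had higher values in both IL4-/- libraries than in either IL4-/-KO library. Cdh1 is also an epithelial gene. The epithelium markers summed to 58636 and 275089 in the IL4-/- libraries and to 20356 and 114299 in the IL4-/-KO libraries, where Cdh1 too was higher in replicate 2, and their part in its difference was not tested. Apol9b has a near-identical neighbour, Apol9a, at 186 and 597 against 55.7 and 39.7, so the split of reads between them is uncertain.

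**Figure D3:**
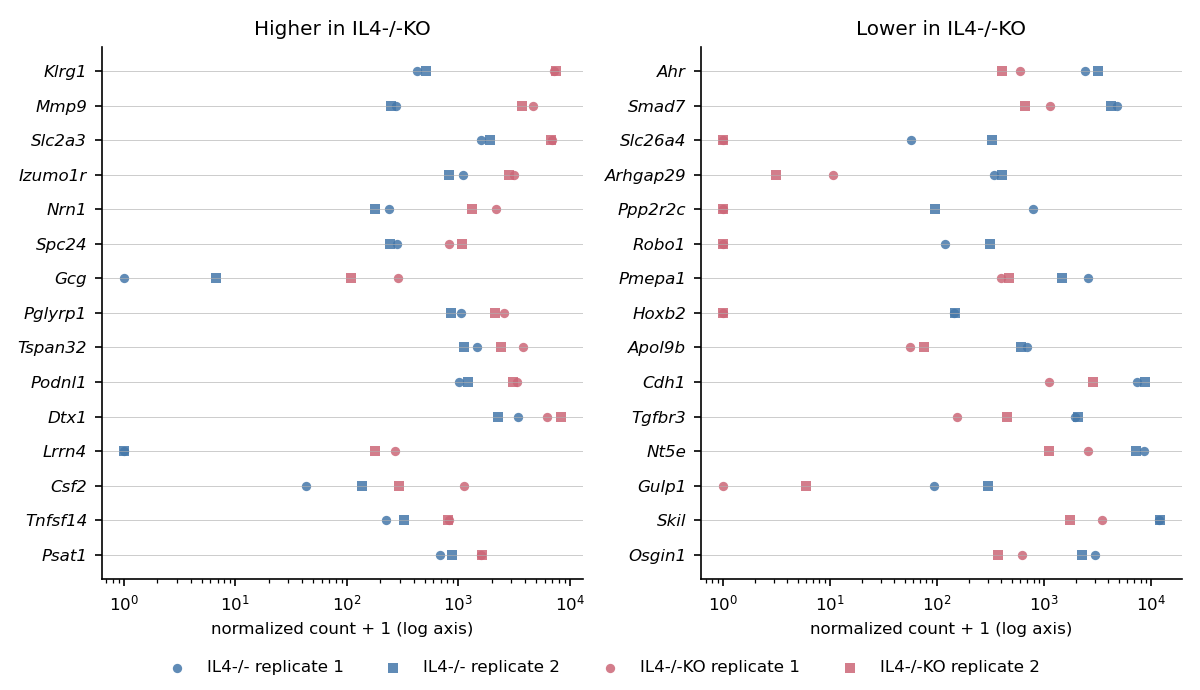
Normalized count + 1 (log axis) in each library of the 15 higher and the 15 lower genes with the smallest limma p among genes whose libraries did not overlap. Klrg1 is at 428 and 515 in the IL4-/- libraries and at 7198 and 7600 in the IL4-/-KO libraries, whereas Slc26a4, Ppp2r2c, Robo1 and Hoxb2 are at 0 (drawn at 1) in both IL4-/-KO libraries.

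Several of the 30 genes were at 0 in 1 group. Over all genes, 14 were at 0 in both IL4-/-KO libraries with at least 50 normalized counts in both IL4-/- libraries, and 3 were the reverse. Ppp2r2c, a regulatory subunit of protein phosphatase 2A, was at 795 and 96.0 in IL4-/- and at 0 in both IL4-/-KO libraries, at least 203-fold lower by its mean against the limit of 3 reads per library and at least 43.7-fold lower by the lower of its 2 libraries. Hoxb2, a homeobox transcription factor, was at 143 and 146 in IL4-/-, at least 65.9-fold lower in IL4-/-KO, with close replicates. Robo1, an axon guidance receptor, was at 119 and 312, at least 98.2-fold lower by the mean and 54.2-fold by the lower library. Coch, an extracellular matrix protein, was at 522 and 142, at least 151-fold lower by the mean and 64.5-fold by the lower library. The anion exchanger gene Slc26a4 was at 56.7 and 324, at least 86.7-fold and 25.8-fold lower by the same measures. In the other direction, Lrrn4 was at 0 in both IL4-/- libraries and at 271 and 179 in IL4-/-KO, at least 103-fold higher. Gbp2b, an interferon-induced GTPase gene, was at 0 in both and at 76.5 and 75.1 in IL4-/-KO, at least 34.7-fold higher, and Slc17a6, a glutamate transporter gene, at 0 in both against 57.9 and 94.6. Gcg, the glucagon gene, was at 0 and 5.80 in IL4-/- and at 290 and 109 in IL4-/-KO. These lower limits cover counting error only. The first and repeat libraries of KO replicate 2, made from the same RNA, had 118 and 0 for Hoxb2, 93.2 and 0 for Robo1 and 64.3 and 0 for Lrrn4. Ppp2r2c, Coch and Slc26a4 were at 0 in both of those libraries. In the first and repeat libraries of KO replicate 1, Ppp2r2c was at 22.1 and 0, Coch at 5.88 and 56.9, and Slc26a4 at 0 in both. How far such losses between libraries enter the differences above was not tested.

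All 30 kept their direction when each of the 4 replicates was left out in turn. DESeq2 called 9 of the 15 higher and 14 of the 15 lower genes. Without IL4-/- replicate 2, under the assumption given above, it called 6 and 5 of them, among them Klrg1, Mmp9, Slc2a3, Nrn1, Csf2, Ahr, Pmepa1 and Apol9b.

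The genes known to respond to TGF-beta were mostly lower in IL4-/-KO. Of 23 TGF-beta response genes, all tested, 20 had a negative log2 fold change, and 11 were at least 2-fold lower with no overlap of the libraries (6.85% of all genes tested were). Here and below, 2-fold refers to the ratio of the group means of normalized counts, which can differ from the log2 fold change of limma. None was at least 2-fold higher in that way (3.45% of all genes), and 8 were lower at an unadjusted limma p under 0.05 (1.97% of all genes). The list's median was -1.51, beside -0.03 for all genes. Without IL4-/- replicate 2 the median was -0.98, and 11 members were still at least 2-fold below the remaining library (8.65% of all genes). When libraries were scaled on core T cell genes, the median of all genes moved to -0.36 and that of this list to -1.84.

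Among the members that feed back on the pathway, Smad7, the inhibitory SMAD, was at 4797 and 4199 in IL4-/- and at 1137 and 669 in IL4-/-KO (log2 fold change -2.36 ± 0.45). Skil, which encodes the SMAD repressor SnoN, was at 11838 and 12174 against 3497 and 1767 (-2.27 ± 0.54). Its relative Ski was at 1537 and 1232 against 538 and 641 (-1.23 ± 0.36). Each of the 3 was lower in both IL4-/-KO libraries than in either IL4-/- library. Pmepa1, a membrane protein that captures receptor-activated SMADs, was at 2598 and 1469 against 400 and 472, and Ldlrad4, a relative of it, at 2062 and 1835 against 720 and 495. Smurf2, a ubiquitin ligase that acts on SMADs and the receptor, was at 1844 and 1143 against 532 and 638, also without overlap. The co-receptor gene Tgfbr3, betaglycan, was at 1954 and 2075 against 152 and 453 (-2.93 ± 0.67).

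Other targets were lower too. Rgs16, a brake on G protein signalling, was at 2754 and 2564 in IL4-/- and at 1077 and 803 in IL4-/-KO, and Id3, an inhibitor of E proteins, at 1063 and 832 against 442 and 136. Itgae, the integrin chain CD103 that holds T cells in epithelium, was at 5088 and 2701 against 1878 and 395 (-2.10 ± 1.03), with a wide spread in the IL4-/-KO group. Not all members were lower. Smad3 stood at 2470 and 1883 against 2428 and 2665, Cdkn2b at 266 and 305 against 232 and 364, and Id2 at 19624 and 11284 against 24382 and 21092, with positive log2 fold changes of 0.24, 0.03 and 0.61. Tgfbi, a secreted protein that macrophages also make, was at 133 and 5474 against 921 and 233, highest in IL4-/- replicate 2.

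Promoters of 3 of the lower genes are shown because SMAD and aryl hydrocarbon receptor complexes are known to bind short core motifs, CAGAC and GCGTG. They come from the 250 bases before a RefSeq start in GRCm38.p6, without any base inside the GENCODE span of the gene, and are printed 5′ to 3′ on the gene's strand, with every match to either motif on either strand in capitals. They lie at chr1:153740103-153740348 (plus strand, 246 bases) for Rgs16, chr4:155222593-155222785 (minus strand, 193 bases) for Ski and chr11:106920716-106920965 (minus strand, 250 bases) for Smurf2.
Rgs16: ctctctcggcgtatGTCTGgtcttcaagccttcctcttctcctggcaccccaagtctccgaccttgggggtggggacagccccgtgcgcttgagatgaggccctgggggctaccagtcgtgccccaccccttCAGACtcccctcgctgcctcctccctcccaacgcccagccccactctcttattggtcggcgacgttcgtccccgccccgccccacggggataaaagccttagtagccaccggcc
Ski: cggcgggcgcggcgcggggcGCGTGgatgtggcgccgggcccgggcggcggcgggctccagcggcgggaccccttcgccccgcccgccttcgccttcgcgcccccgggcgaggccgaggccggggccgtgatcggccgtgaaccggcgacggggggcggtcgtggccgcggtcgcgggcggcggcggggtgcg
Smurf2: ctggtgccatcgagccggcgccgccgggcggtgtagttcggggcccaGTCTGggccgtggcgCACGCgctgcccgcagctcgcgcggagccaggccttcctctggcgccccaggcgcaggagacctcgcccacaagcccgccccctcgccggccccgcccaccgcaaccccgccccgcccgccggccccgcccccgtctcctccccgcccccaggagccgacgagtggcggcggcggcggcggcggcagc
Rgs16 held 2 matches to CAGAC and 0 to GCGTG, Ski 0 and 1, and Smurf2 1 and 1, and no matches overlapped. RefSeq windows of 250 bases were matched for 14 of the 23 TGF-beta response genes, with 19 windows in all. CAGAC was in 11 of the 19 (57.9%), against 40.9% of 14155 windows of tested genes and 42.2% of all 32851 windows. GCGTG was in 5 of 7 windows of the aryl hydrocarbon receptor list (71.4%), against 42.5% and 28.2%. The TGF-beta response windows also held GCGTG in 11 of 19 (57.9%), and the aryl hydrocarbon receptor windows held CAGAC in 2 of 7 (28.6%). CAGAC was in 40% of the 10 windows matched for the 15 lower genes of smallest p. For the 15 higher genes it was in 50% of 10 windows. These shares describe letters in the windows and say nothing of binding.

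Genes of killer cell receptors and short-lived effector cells were mostly higher in IL4-/-KO. Of 19 tested, 16 had a positive log2 fold change, 6 were at least 2-fold higher with no overlap (3.45% of all genes), none was lower in that way, and 4 were higher at an unadjusted limma p under 0.05 (1.22%). Their median was 1.12, and 0.54 without IL4-/- replicate 2, when 8 members were at least 2-fold higher (10% of all genes) and 2 lower (8.65%). Besides Klrg1, S1pr5, a sphingosine phosphate receptor that guides effector cells out of tissue, was at 35.6 and 175 in IL4-/- and at 981 and 2062 in IL4-/-KO (4.15 ± 1.28). Klrb1c, with the values above, was another of the 6. Ly6c2, a surface protein of effector T cells and monocytes, was at 3170 and 1873 against 5630 and 10839. Il18rap, a chain of the IL-18 receptor, was at 2831 and 2384 against 6780 and 8572, above both IL4-/- libraries in each case. The lectin receptor genes Klrd1 (851 and 344 against 1126 and 1230) and Klrk1 (2415 and 1631 against 2587 and 4752) were also without overlap, but their group means differed less than 2-fold. S1pr1, another sphingosine phosphate receptor of T cell egress, was slightly lower without overlap, at 14032 and 12718 against 9456 and 12432.

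Cytotoxic granule genes were mixed. Of 14 tested, 5 were at least 2-fold higher without overlap (3.45% of all genes) and 1 was lower, near the 6.85% of all genes. The median of 0.52 turned to -0.21 without IL4-/- replicate 2, when 4 were higher (10% of all genes) and 3 lower (8.65%). Gzma, granzyme A, was at 2398 and 1686 in IL4-/- and at 6835 and 4112 in IL4-/-KO, and Gzmm, granzyme M, at 30.0 and 21.9 against 176 and 204. Gzmb, granzyme B, was at 7341 and 1942 against 15750 and 7887, which nearly met between the groups. Serpinb9, an inhibitor of granzyme B, and Serpinb6b, also a serine protease inhibitor, had higher values in both IL4-/-KO libraries, at 4294 and 2823 against 13189 and 10113 and at 659 and 504 against 2865 and 2106. Gzmk, granzyme K, was the exception, at 7037 and 1289 against 556 and 919. The perforin gene Prf1 overlapped between the groups, at 1621 and 403 against 629 and 659.

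Of the type 1 helper genes, 3 of 18 tested were at least 2-fold higher without overlap (3.45% of all genes) and 1 was lower, near the 6.85% of all genes. The 3 were Tbx21, the transcription factor T-bet, at 4256 and 4670 in IL4-/- and 10174 and 12626 in IL4-/-KO (1.35 ± 0.53), Ifng, interferon gamma, at 4129 and 4429 against 10903 and 6971 (1.03 ± 0.83), and Il12rb2, a chain of the IL-12 receptor, at 1506 and 1071 against 4487 and 4068. Eomes, the relative of T-bet, was at 1952 and 417 against 187 and 440. The list's median of 0.29 became -0.04 under core T cell scaling, beside -0.36 for all genes. Type 2 helper genes had a median of 0.14, which became -0.19 under that scaling. The other type 2 cytokine genes were low in most libraries. Il5 was at 16.2 and 0.644 in IL4-/- and at 681 and 15.2 in IL4-/-KO, so that 1 library carried its difference. With Il4 intact, Il5 was also low in WT, at 35.6 and 38.3, and was at 525 and 3660 in KO (means of its library pairs). Gata3, the transcription factor of type 2 cells, stood at 3721 and 4112 against 5513 and 4985, and Ccr8, a chemokine receptor, at 4161 and 2762 against 2514 and 849.

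Type 17 helper genes were lower on balance, with 5 of 16 at least 2-fold lower without overlap (6.85% of all genes) and 2 higher (3.45%). Their median was -1.02, and -0.69 without IL4-/- replicate 2, when 2 were lower and 2 higher, near the 8.65% and 10% of all genes. The lower members were Ahr, Il1r1, Il6ra, Tmem176a and Tmem176b. Il6ra, a receptor chain for IL-6, was at 1253 and 1972 in IL4-/- and at 457 and 560 in IL4-/-KO, and Tmem176a, a membrane channel protein, at 3012 and 4844 against 1992 and 1113. The defining cytokine gene Il17a was at 337 and 377 against 233 and 149, lower without overlap but less than 2-fold by the means. Batf and Il21 were the higher members, the first a transcription factor of activated T cells at 1886 and 1147 against 3746 and 3357, the second a cytokine gene at 94.0 and 120 against 382 and 367. In the aryl hydrocarbon receptor list, only Ahr and Nfe2l2 of 10 tested were at least 2-fold lower without overlap (6.85% of all genes), and 1 of the 10 without IL4-/- replicate 2 (8.65%). Nfe2l2, the regulator of antioxidant genes, was at 2151 and 3555 against 1431 and 1352. Cyp1a1, the classic target of the aryl hydrocarbon receptor, was at 0 in both IL4-/- libraries and at 11.1 and 41.9 in IL4-/-KO, at least 12.2-fold higher by the mean and 5.11-fold by the lower library. Tiparp, another target of that receptor, overlapped at 2928 and 4313 against 3342 and 1752.

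Regulatory T cell genes had a median of 0.76 (0.91 without IL4-/- replicate 2), with 14 of 16 positive, 5 at least 2-fold higher without overlap (3.45% of all genes) and 1 lower, near the 6.85% of all genes. Without IL4-/- replicate 2 these were 7 (10%) and 1 (8.65%). Foxp3, the transcription factor that defines these cells, was at 1415 and 1141 in IL4-/- and at 5327 and 1511 in IL4-/-KO. Tnfrsf9, the costimulatory receptor 4-1BB, was at 3464 and 2231 against 13757 and 5057, and Tnfrsf4, the receptor OX40, at 5506 and 4899 against 15168 and 7778. In all 3 genes IL4-/-KO replicate 1 was far above replicate 2, and without it the log2 fold change of Foxp3 was 0.25 and that of Tnfrsf9 0.86. Ikzf4, the transcription factor Eos of the same cells, went the other way, at 808 and 702 against 206 and 32.5 (-3.18 ± 0.92). Il2ra, whose product was the basis of the sort, was at 1717 and 1896 against 4053 and 2430.

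Naive and central memory genes had a median of -0.30, with 4 of 17 at least 2-fold lower without overlap (6.85% of all genes) and none higher. Without IL4-/- replicate 2 the median was -0.55 and 6 of 17 were at least 2-fold lower (8.65% of all genes). Ccr7, the lymph node homing receptor, was at 14798 and 9156 in IL4-/- and at 4019 and 2921 in IL4-/-KO (-1.76 ± 0.71). Actn1, an actinin of naive T cells, was at 507 and 782 against 167 and 239, and the transcription factor genes Satb1 (9437 and 7099 against 4455 and 3844) and Lef1 (7685 and 4170 against 2777 and 3394) were lower without overlap at under 2-fold by the means. Tcf7, their partner in naive cells, stood at 14053 and 15397 against 12132 and 15149 and overlapped.

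Cell cycle genes were higher throughout. All 29 tested members had positive log2 fold changes, from 0.24 to 1.43, where 47.6% of all genes were positive. Of these 29, 22 had no overlap (16.8% of all genes), 11 were also at least 2-fold higher (3.45%), and 12 had an unadjusted limma p under 0.05 (1.22%). Without IL4-/- replicate 2, 6 were at least 2-fold higher (10% of all genes). Ccna2, cyclin A2, was at 878 and 687 in IL4-/- and at 2299 and 1898 in IL4-/-KO (1.43 ± 0.49). Cdc20, an activator of the anaphase-promoting complex, was at 747 and 810 against 1399 and 2105, and Aurka, a mitotic kinase, at 346 and 301 against 648 and 716. The list's median of 0.80 was 0.49 without IL4-/- replicate 2 and 0.47 under core T cell scaling, which put the median of all genes at -0.36. Core T cell genes themselves had a median of 0.38, and -0.01 without IL4-/- replicate 2.

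**Figure D4:**
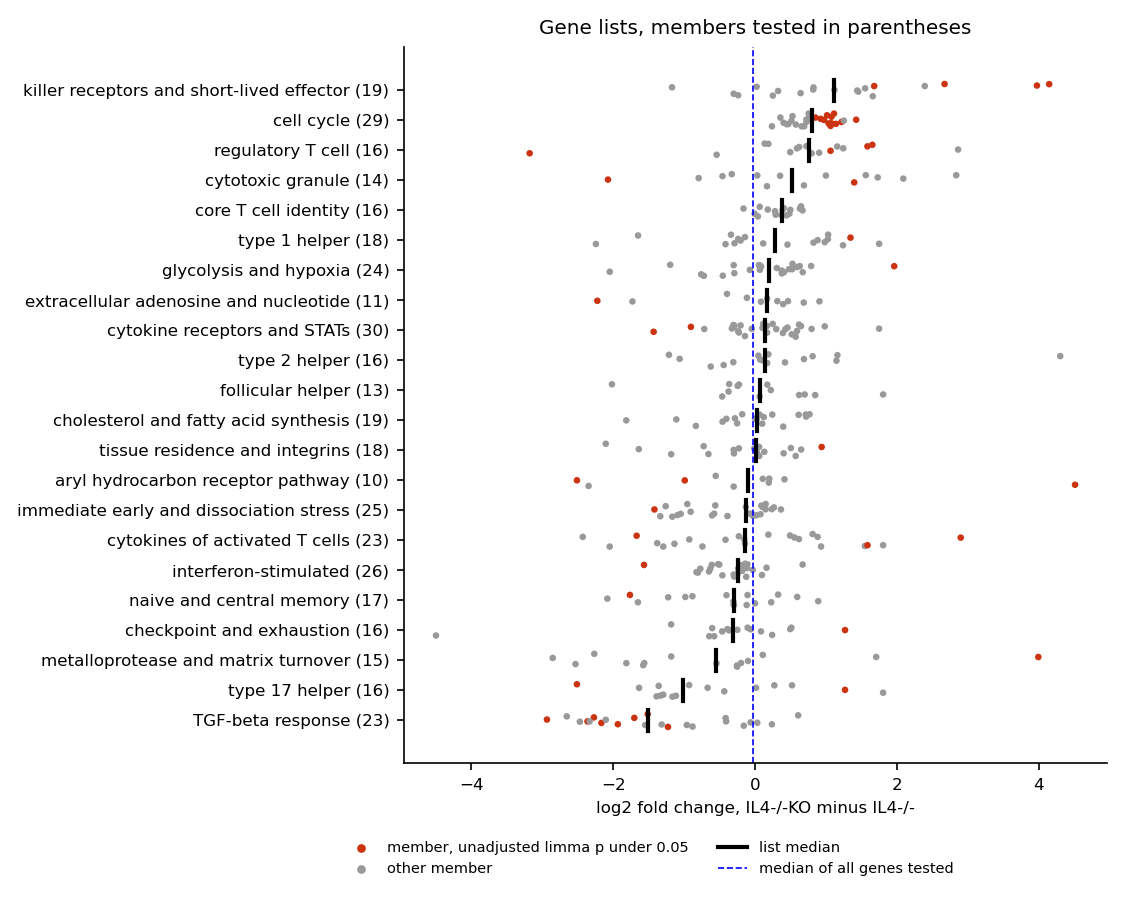
Log2 fold changes, IL4-/-KO minus IL4-/-, of the tested members of 21 lists of T cell states and of core T cell identity, with list medians (black bars) and the median of all genes tested (dashed line, -0.03). The TGF-beta response list has the lowest median (-1.51) and the killer receptor list the highest (1.12), and all 29 cell cycle genes lie to the right of 0.

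Cytokine, signalling and surface genes outside these lists varied one by one. Tnfsf11, the cytokine RANKL, was at 3233 and 3276 in IL4-/- and at 1562 and 669 in IL4-/-KO (-1.67 ± 0.42), and Csf1, the macrophage growth factor, at 676 and 1227 against 2869 and 2479. Dusp2, a phosphatase that limits MAP kinase signalling, was at 9929 and 6972 against 4134 and 2343, and Cish, an inhibitor of cytokine signalling, at 9847 and 6269 against 5173 and 3407. Itgb1, the integrin beta 1 chain, was at 26248 and 22590 against 47679 and 45731 (0.94 ± 0.39). Adora2a, a receptor for adenosine, was at 1232 and 1047 against 2216 and 2051, while Entpd1, which encodes CD39 and acts before CD73, overlapped at 2216 and 1896 against 2295 and 2057. Interferon-stimulated genes had a median of -0.24 with 23 of 26 negative. Of the 26, 10 were lower without overlap (16.2% of all genes) and 0 higher (16.8%). Only 1, the antiviral Oas2 (527 and 647 against 230 and 168), was also at least 2-fold lower (6.85% of all genes). Cd8a was at 0 and 3.22 in IL4-/- and at 37.1 and 62.1 in IL4-/-KO, low beside the core T cell genes. Jchain, the joining chain of plasma cells, was at 347 and 14.8 against 2110 and 1134. It had the highest log2 fold change of the 6 B cell and plasma cell genes tested, which were split. Of these 6, 3 were higher and 3 lower, with a median of 0.14. Without overlap, 2 were at least 2-fold higher, Jchain among them, and 2 at least 2-fold lower.

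The same deletion with an intact Il4 gene, KO against WT, gave a comparison with no library in common, though one fit estimated the spread of both. Each KO replicate had a second library from the same RNA, and the 2 were averaged. WT and the first KO libraries were shallower, at 17121030 to 18479090 reads, than the KO repeats and all Il4-deficient libraries, so depth and the Il4 background cannot be told apart where WT is involved. The WT replicates also differed from each other, with epithelium marker sums of 393521 and 66427 and neutrophil sums of 66260 and 2724. Core T cell sums were 157673 and 294863. Dendritic cell, NK and CD8 T cell sums were lower in WT replicate 1. The part of these differences in KO against WT was not tested. Of the 15 higher genes, 14 were also higher in KO than in WT, the exception being Lrrn4 (-0.79), and 14 of the 15 lower genes were also lower, the exception being Hoxb2 (2.89). The share of all tested genes with the same sign on both backgrounds is not given here, so these counts lack a background to be read against. Klrg1 was at 339 and 206 in WT and at 2860 and 5210 in KO (means of its library pairs), a log2 fold change of 3.86 beside 3.97 without Il4. Mmp9 was at 92.2 and 108 against 3339 and 8204 (5.62), and Ahr at 3209 and 4511 against 681 and 685 (-2.56). Nt5e was at 3669 and 4897 against 277 and 646 (-3.33). For these 4 genes the direction was the same on both backgrounds. The unadjusted limma p of the difference was 0.849 for Klrg1, 0.930 for Ahr, 0.172 for Nt5e and 0.0319 for Mmp9.

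The difference between the backgrounds was tested gene by gene. Limma called no gene (0%), with 546 at an unadjusted p under 0.05 (3.77%), edgeR called none, and DESeq2 called 35 (0.242%), of which 21 also had an unadjusted limma p under 0.05. Among genes with a mean of at least 100 normalized counts over the 8 replicates, Tgfb1, the main TGF-beta ligand of T cells, had the smallest p, with a log2 fold change of -0.41 without Il4 and 1.57 with it (limma adjusted p of the difference 0.967, DESeq2 0.0049). It was at 3413 and 3881 in IL4-/- and at 2650 and 2813 in IL4-/-KO. In WT it was at 1606 and 1851, in the first KO libraries at 4046 and 3644 and in the repeats of the same RNA at 5153 and 9097. Sbno2, a transcriptional coregulator, followed at -0.73 against 1.41, Zc3h12a, an RNase that limits inflammatory transcripts, at -0.94 against 1.95, Ramp3, a receptor partner for calcitonin family peptides, at -0.33 against 1.68, and Fgb, a fibrinogen chain, at -3.19 against 4.18. All 5 had negative values without Il4 and positive values with it. The first and repeat libraries of KO replicate 2 were at 3730 and 10055 for Sbno2, 1452 and 3856 for Zc3h12a and 616 and 379 for Fgb. WT was at 2658 and 2475, 839 and 766, and 137 and 48.8 for these genes. The part of such differences between libraries of the same RNA was not tested. The lectin receptor genes Klrk1 (0.82 against -2.21), Klrd1 (1.12 against -1.33) and Klre1 (2.39 against -2.97), chosen here after their values were seen, ran the opposite way, and the checkpoint receptor gene Lag3 was at -0.64 against 3.29. None of these differences passed the adjusted limma test, and without IL4-/- replicate 2 DESeq2 called 54 genes (0.373%), 9 of them among the 35, with Fgb but not Tgfb1, Sbno2 or Zc3h12a among the 9.

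**Figure D5:**
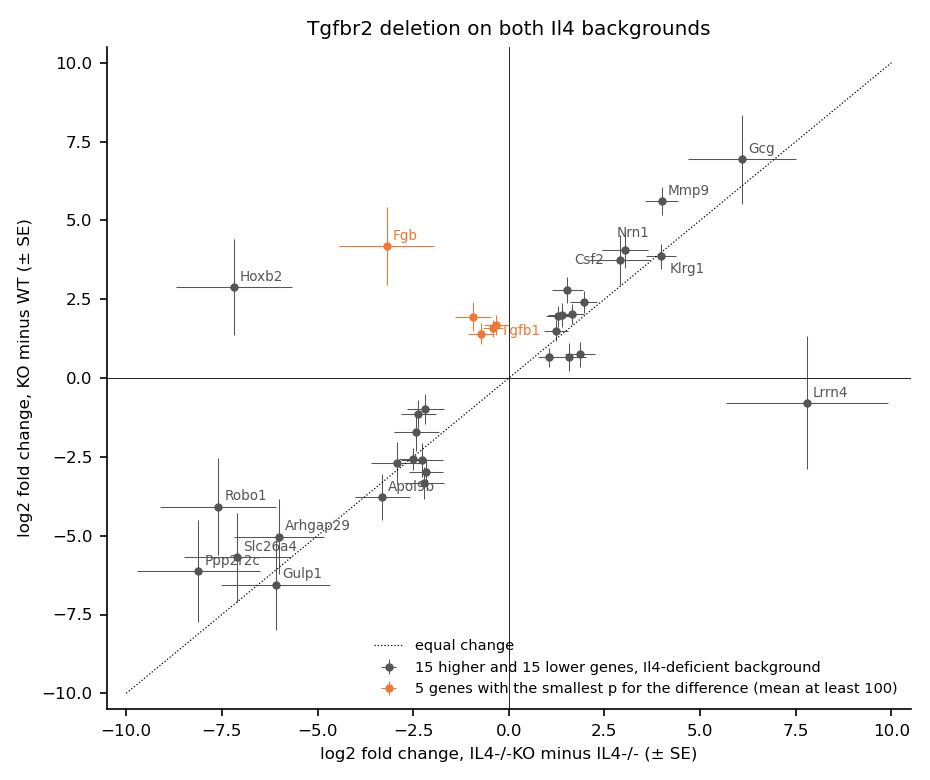
Log2 fold change of Tgfbr2 deletion without Il4 (horizontal) against that with Il4 (vertical), with bars of 1 SE, for the 30 genes of smallest p without Il4 (grey) and the 5 genes of smallest p for the difference among those with a mean of at least 100 normalized counts (orange). Of the 30, 28 lie on the same side of 0 on both axes, while Hoxb2, Lrrn4 and the 5 orange genes do not. The same share over all genes is not given.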

How the data were processed

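RNA was sequenced from sorted CD4+CD25- tumour T cells of 4 genotypes (10 libraries, 8 replicates). Per the labels' protocols, RNA was amplified with SMART-Seq v4 and libraries were made with KAPA Hyper Prep, without molecular identifiers. Per the submitters' processing notes, bcl2fastq 2.18.0, STAR and DESeq2 were used with mm10. The counter, its annotation and its use of strand are not given in the sources used here, so overlapping and antisense genes cannot be told apart. The deposited signal is a normalized count per gene, reads over the library's size factor. Every value (100%) came out as whole reads within 0.001 reads, which gave 0.644 to 1.47 normalized counts per read. The 7 unnamed rows (0.0029% to 0.0205% of reads) were left out.

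Genes with at least 10 normalized counts in 2 of 8 replicates were tested with limma 3.58.1 (R 4.3.3, mean-variance trend, two-sided, Benjamini-Hochberg, threshold 0.05) on log2(normalized count + 1). The KO library pairs were averaged on the log2 scale, leaving 4 residual degrees of freedom. The recovered reads, summed per replicate, were tested with edgeR 4.0.16, which called 0 genes, and DESeq2 1.42.0, which called 51. The pipeline was tested on simulated data.

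Members and lists (33 lists, 515 genes, of which 470 were tested and 24 not found) were chosen with earlier results of these data known. Named genes were Tgfbr2, Il4, the 15 higher and 15 lower genes of smallest p with no overlap and a mean of at least 100 in the higher group, up to 3 genes per list by smallest p, up to 5 genes at 0 in 1 group and at least 50 in the other, and the 5 of smallest p for the difference between backgrounds with a mean of at least 100 over the 8 replicates. Other genes were named after their values were seen. Positions came from GENCODE for mm10. Alternatives varied the pseudocount, filter, scaling, variance trend, genotypes fitted, KO libraries, a replicate block, marker covariates, the test, and each replicate in turn.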

Additional observations from a re-analysis of the deposited data

How the results depend on the processing

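Under 25 alternatives, 116 named genes kept their direction except 4. For genes without overlap between the groups, leaving out 1 replicate could not reverse that direction. Leaving out 1 of the 8 replicates in turn moved the log2 fold change of Il4 from -1.09 to 0.20, of Cd244 from -9.03 to 0.035, of Cd3d from -0.065 to 1.33 and of Ramp3 from -0.66 to 0.011, and Cd3d was at -0.0511 by DESeq2 without IL4-/- replicate 2. Limma called 0 genes, but 1 with quantile normalization and 8 without the variance trend, while DESeq2 called 51, and 87 without IL4-/- replicate 2, an alternative chosen after seeing the data. Genes at an unadjusted p under 0.05 (462) numbered 279 with a filter at 100 normalized counts, 698 with only the 2 genotypes fitted, 770 with an epithelium covariate, 744 by DESeq2 without IL4-/- replicate 2, and 374 to 554 with 1 replicate left out. The 374 came without IL4-/-KO replicate 2. In such fits the lone library of a group is assumed to vary like those of the other groups. The cause was not tested, except that the filter left fewer genes. For the difference between backgrounds, DESeq2 called 35 genes, and 54 without IL4-/- replicate 2. With the replicate number as a replicate block, 0 genes were called and 382 had an unadjusted p under 0.05. Same-numbered replicates deviated together with a correlation of 0.24 over genes, but 2 pairs cannot show that the numbers pair the samples. Depth limits the genes near 0, where a value of 0 allows up to 3 reads.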
